A study of Mus musculus with 24 samples.

Results

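The 84 genes described here encode the nuclear subunits of the oxidative phosphorylation complexes, taken from 48526 genes in the RNA-seq files by their symbols. Symbols starting with Nduf, Cox4 to Cox8, Uqcr or Atp5, and Sdha, Sdhb, Sdhc, Sdhd and Cyc1, matched 99 genes. Of these, 13 assembly factors (Ndufaf) and pseudogenes (-ps) were left out by name. Cox8b and Cox8c were left out because they did not reach an FPKM of 1 in 3 of the 24 libraries. FPKM, fragments per kilobase of transcript and scaled to the library's mapped fragments, is a level already scaled for depth and gene length. Complex I had 36 members, complex II 4, complex III 9, complex IV 18 and complex V 17. Ndufa4 and Ndufa4l2 were counted in complex IV, to which NDUFA4 is now assigned. By prefix alone complex I would have had 38 members and complex IV 16. Atp5s and Atp5sl carry the prefix but are not subunits of ATP synthase, and Cox7a2l joins complexes into supercomplexes.

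Male C57BL/6J mice, a wild-type inbred strain, were 8 weeks old and were entrained to 12 h of light and 12 h of dark for 2 weeks. Chronic jet lag (CJL) mice then had the light and dark phases advanced by 6 h every 2 days, and control (Ctrl) mice kept the first schedule. On Day 10, prefrontal cortex (PFC) and nucleus accumbens (NAc) were taken at ZT13 or ZT1, where ZT is the number of hours after lights on, so ZT13 lies early in the dark phase and ZT1 early in the light phase. The 8 groups were NAc ZT13 CJL, NAc ZT13 Ctrl, NAc ZT1 CJL, NAc ZT1 Ctrl, PFC ZT13 CJL, PFC ZT13 Ctrl, PFC ZT1 CJL and PFC ZT1 Ctrl, each with 3 libraries of polyadenylated RNA. No transgene or drug was used, and each library holds all cells of the dissected tissue, so fewer cells of a type and less RNA per cell cannot be told apart. By the study's methods each mouse gave both regions, but the labels do not tie a PFC library to an NAc library.

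Oxidative phosphorylation makes ATP at the inner mitochondrial membrane. Complex I oxidises NADH and complex II oxidises succinate, both pass electrons through ubiquinone to complex III, and cytochrome c carries them on to complex IV, which reduces oxygen. Complexes I, III and IV pump protons, and complex V, the ATP synthase, uses the return flow of protons to make ATP. Complexes I, III, IV and V hold subunits of the mitochondrial genome as well as nuclear ones, and all subunits of complex II are nuclear. Neurons draw most of their ATP from this pathway. The nuclear factors NRF1, GABP (NRF2), YY1 and the estrogen-related receptors are known regulators of these genes.

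Promoter sequences of RefSeq (build GRCm38.p6), 250 bases before to 50 after the annotated start of each gene, were found for 66 of the 84 members. The 250 bases before the start are shown for 5 of them, all with a match to the letters below, written 5′ to 3′ on the gene's strand. Ndufb4, Uqcr11, Ndufb11 and Atp5g2 rose in PFC at ZT1 under CJL, and Sdha was higher in NAc than in PFC. Capitals mark matches on either strand to GCGCA followed by any base and GCGC (the NRF1 consensus), CCGGAAG (GABP) or AANATGGC (YY1). All 5 lie on the minus strand, at chr16:37654369-37654618 for Ndufb4 (3 NRF1 matches), chr10:80406822-80407071 for Uqcr11 (GABP), chrX:20617620-20617869 for Ndufb11 (YY1), chr15:102671048-102671297 for Atp5g2 (NRF1) and chr13:74350241-74350490 for Sdha (3 NRF1 matches). Cox5b, Ndufa13 and Ndufv3, which also rose in PFC at ZT1 under CJL, hold none of these letters and are not shown.
Ndufb4: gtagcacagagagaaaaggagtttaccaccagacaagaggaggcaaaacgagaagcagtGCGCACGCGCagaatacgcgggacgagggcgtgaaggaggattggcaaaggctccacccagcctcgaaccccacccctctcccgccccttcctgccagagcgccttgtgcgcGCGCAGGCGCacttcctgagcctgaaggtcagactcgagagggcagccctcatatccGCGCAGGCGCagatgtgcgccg
Uqcr11: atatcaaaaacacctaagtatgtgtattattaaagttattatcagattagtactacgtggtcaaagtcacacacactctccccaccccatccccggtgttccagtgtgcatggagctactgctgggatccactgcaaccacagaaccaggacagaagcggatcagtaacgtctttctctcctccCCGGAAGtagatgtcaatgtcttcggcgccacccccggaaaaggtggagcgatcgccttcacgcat
Ndufb11: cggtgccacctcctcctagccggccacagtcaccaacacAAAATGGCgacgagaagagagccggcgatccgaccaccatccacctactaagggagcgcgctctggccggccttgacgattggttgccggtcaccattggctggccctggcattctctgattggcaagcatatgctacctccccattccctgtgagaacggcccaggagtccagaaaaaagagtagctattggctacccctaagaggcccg
Atp5g2: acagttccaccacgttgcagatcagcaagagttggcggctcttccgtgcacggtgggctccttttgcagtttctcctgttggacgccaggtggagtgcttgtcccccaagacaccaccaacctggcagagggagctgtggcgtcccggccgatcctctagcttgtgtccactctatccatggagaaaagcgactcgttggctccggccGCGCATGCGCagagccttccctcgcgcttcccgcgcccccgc
Sdha: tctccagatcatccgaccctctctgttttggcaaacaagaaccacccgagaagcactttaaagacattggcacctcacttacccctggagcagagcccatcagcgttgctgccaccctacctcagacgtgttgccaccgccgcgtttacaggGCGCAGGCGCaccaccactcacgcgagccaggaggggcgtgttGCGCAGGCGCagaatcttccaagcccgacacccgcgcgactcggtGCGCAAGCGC

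In these windows the matches of Ndufb4 began 191, 79 and 22 bases before the start and those of Sdha 98, 55 and 10 bases before it. The match of Uqcr11 began 66, that of Atp5g2 42 and that of Ndufb11 211 bases before the start. Over the whole window of 300 bases, 17 of 66 members (25.8%) held the NRF1 consensus, against 5.19% of 27025 genes with a promoter in the same table and 7.17% of the 17492 protein-coding genes among them. The GABP letters were in 16 members (24.2%), against 9.93% of all genes and 12.9% of protein-coding genes. The YY1 letters were also in 16 members (24.2%), against 6.96% and 7.46%, and 12 of these 16 were among the 32 complex I members with a sequence. Complex I held the NRF1 letters in 7 members, complex II in 2 of 3, complex III in 1 of 5, complex IV in 1 of 13 and complex V in 6 of 13. The E-box CACGTG, the site of the clock proteins CLOCK and BMAL1, was in 5 members (7.58%), against 8.09% of all genes and 8.91% of protein-coding genes. The letters TNAAGGTCA of the estrogen-related receptors were in 3 members (4.55%), against 1.43% and 1.19%. No matches of different motifs overlapped in the members' windows. These matches describe the letters only and are not evidence of binding.

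Per library, the FPKM of all genes summed to 380073 to 408840, and reads behind a gene are unknown from FPKM, so precision rests on the spread between 3 mice. Marker genes followed the labels: Slc17a7 of cortical projection neurons had 23.8 to 154 FPKM in NAc and 266 to 469 FPKM in PFC, and Drd2 of striatal projection neurons had 17.2 to 45.6 FPKM in NAc and 1.23 to 6.97 FPKM in PFC. In 7 libraries (3 of NAc, 4 of PFC), markers of choroid plexus, olfactory bulb, or thalamus and hypothalamus stood more than 1.5 log2 units above the region's median. Cortical projection neuron markers, which were not part of this rule, differed within NAc. Against the NAc median they stood at 0.845, 1.289 and 1.137 in ZT13 Ctrl and at -1.559, -0.553 and 0.03 in ZT1 Ctrl. In CJL they stood at -0.198 to 1.006 at ZT13 and -1.314 to 0.588 at ZT1. Their part in the members' values was not tested. In 6 libraries, mt-Atp6, a complex V subunit of the mitochondrial genome, had 4605 to 7863 FPKM, against 672 to 1288 FPKM in the other 18. These were all 3 PFC ZT1 Ctrl libraries, NAc ZT13 Ctrl replicate 1, NAc ZT1 CJL replicate 3 and NAc ZT1 Ctrl replicate 1. In PFC this split is the same as the split between the ZT1 Ctrl group and the rest, so what raised mt-Atp6 there cannot be told apart from the group. Of the members, 30 share exon bases with another gene in GENCODE M21, and 3 share more than 20% of them: Ndufa13 (30.0%, with Tssk6), Ndufb6 (39.0%, with Smim27) and Atp5o (47.9%). Whether reads were counted by strand is not given in the sources used here, so the values of these 3 are uncertain.

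The members were abundant, with a median of 59.6 FPKM over the 24 libraries, against 7.64 FPKM for the 16072 genes tested in both regions together. By complex the median level was 43.1 FPKM in complex I, 57.2 in complex II, 80.4 in complex III, 90.2 in complex IV and 93.8 in complex V. The levels within a complex differed more than the medians between complexes. In complex I they ran from Ndufc1, an accessory subunit (14.8 FPKM), to Ndufb9 (115 FPKM). In complex II, Sdhc, a membrane anchor, had 22.6 FPKM and Sdha, the flavoprotein that oxidises succinate, had 123 FPKM. In complex III, Uqcrq had 36.9 FPKM and the core protein gene Uqcrc1 117 FPKM. In complex V, Atp5s had 8.76 FPKM and Atp5b, the catalytic beta subunit, 465 FPKM, the highest level of all members. Complex IV was the widest, from Cox7b2, a testis isoform with a mean of 0.535 FPKM, to Cox8a with 434 FPKM. Cox7b2 lies just inside the rule and Cox8b, a heart and skeletal muscle isoform with a highest value of 0.980 FPKM, just outside it.

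Of paired isoforms of complex IV, the form made in most tissues prevailed in every library. The ratio of Cox4i1 to Cox4i2, a hypoxia-responsive lung isoform, had a median of 198.5 in NAc and 155.5 in PFC. Cox6a1 stood at a median of 66.3 times Cox6a2, the heart and muscle isoform, in NAc and 54.9 times in PFC. Cox6b1 stood at 66.9 times Cox6b2, the testis isoform, in NAc and 84.8 times in PFC. The ratio of Cox7a2 to the muscle isoform Cox7a1 was 55.1 in NAc and 69.7 in PFC. Ndufa4 stood at 95.0 times its paralog Ndufa4l2 in NAc and 70.0 times in PFC. The 3 genes of the membrane ring subunit c, which encode the same mature protein, were closer together: Atp5g3 was at 2.20 times Atp5g2 and 2.61 times Atp5g1 in NAc, and at 2.83 and 3.20 times them in PFC. These ratios are between genes on the FPKM scale, which is per length.

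**Figure D1:**
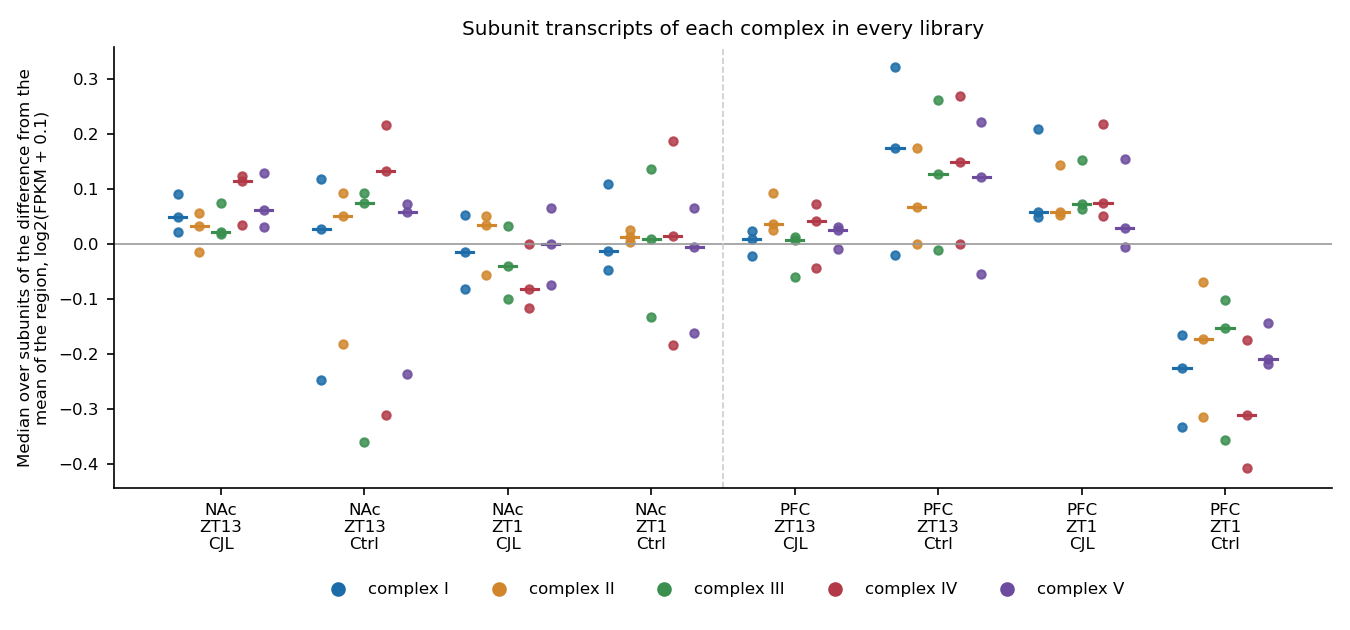
Median over the subunits of each complex of the difference from the mean of the region on the log2(FPKM + 0.1) scale (y axis), with 3 libraries (points) and their median (bar) for each of the 8 groups (x axis). In PFC, all 5 complexes lay below 0 in the 3 ZT1 Ctrl libraries (-0.07 to -0.41), and in NAc the lowest points belong to ZT13 Ctrl replicate 1 (-0.18 to -0.36).

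Set against the mean of their own region, the 5 complexes largely moved in the same direction from library to library in PFC, as the plot of complex medians shows. Their sizes differed, as in PFC ZT1 Ctrl replicate 2 (complex IV -0.407, complex V -0.218). In some NAc libraries they lay on both sides of 0, such as ZT1 Ctrl replicate 2 (complex II 0.013, complex IV -0.183) and ZT1 CJL replicate 1 (0.051 and -0.082). In PFC the median over all members was -0.15, -0.34 and -0.22 in replicates 1, 2 and 3 of ZT1 Ctrl, against -0.02 to 0.28 over the 9 remaining libraries (log2 scale). In those 3 libraries 76, 78 and 80 of the 84 members lay below the PFC mean. Summed, the members took 1.35% to 1.56% of all FPKM in the PFC ZT1 Ctrl group, against 1.70% to 1.97% in the remaining PFC groups. In NAc the lowest library was ZT13 Ctrl replicate 1, with a median of -0.25 and 75 members below the NAc mean. The other 11 NAc libraries had medians of -0.10 to 0.12. Of the NAc libraries with high mt-Atp6, ZT13 Ctrl replicate 1 was that lowest library, while ZT1 CJL replicate 3 (-0.084) and ZT1 Ctrl replicate 1 (-0.006) lay within the range of the rest. Genes of the mitochondrial genome took 15.5% to 21.3% of FPKM in the PFC ZT1 Ctrl group, against 13.6% to 14.6% in the remaining PFC groups. Leaving mt-Atp6 out of both sums gave 14.49% to 19.75%, against 13.44% to 14.45%. Cytosolic ribosomal protein genes, which also have short, abundant messages, stood at a median of -0.13 to -0.20 in PFC ZT1 Ctrl libraries. The part of these shifts in the members' values was not tested.

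The first comparison asked how CJL changed the PFC at ZT1. Of the 83 members tested there, 12 rose under CJL and none fell at an adjusted p under 0.05 by limma. Over all 14914 genes, 1.17% rose and 0.416% fell. The median log2 fold change of the members was 0.34, against 0.042 over all genes, and 79 of 83 were above 0. At an unadjusted p under 0.05, 59 members were higher and none lower, where 13.8% of all genes were higher and 7.39% lower. The CJL and Ctrl libraries did not overlap in 63 members, all higher in CJL, where 17.0% of all genes were higher and 10.4% lower without overlap. All 4 PFC groups shared an estimate of spread in the test. Every ZT1 Ctrl library was high in mt-Atp6, and what raised it cannot be told apart from the lighting here.

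**Figure D2:**
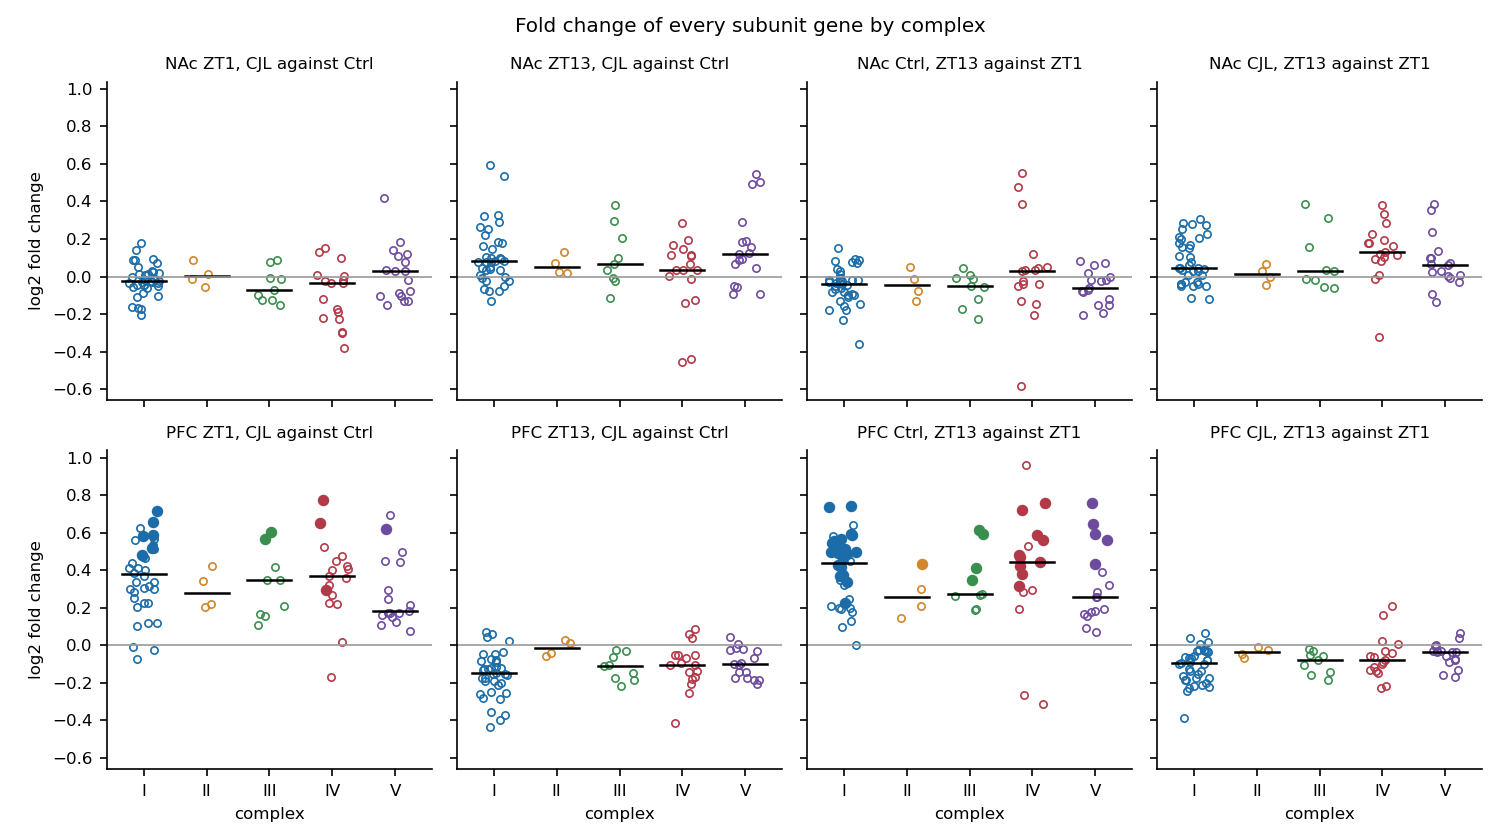
Log2 fold change of each subunit gene (y axis) by complex (x axis) in 8 comparisons, NAc in the upper row and PFC in the lower. Filled points passed an adjusted p under 0.05, open points did not, and bars are medians. In PFC, 12 members rose at ZT1 under CJL and 41 rose at ZT13 in Ctrl mice, and no point is filled in NAc.

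Among the complexes, complex III held the member with the smallest p. Uqcr11, a small accessory subunit of complex III at chr10:80402997-80406830 (mm10), had 67.3, 59.9 and 67.7 FPKM in PFC ZT1 CJL libraries, against 42.3, 40.3 and 45.7 FPKM in ZT1 Ctrl libraries. The groups did not overlap, and the log2 fold change was 0.60 (SE 0.079, adjusted p = 0.0155). Uqcrq, the ubiquinone-binding subunit VII, had 43.5, 48.6 and 40.7 FPKM in CJL and 31.8, 28.8 and 28.9 FPKM in Ctrl, a log2 fold change of 0.57 (SE 0.092, adjusted p = 0.0263). The other 7 members of complex III did not pass, from Uqcrc1 (0.11, adjusted p = 0.427) to the Rieske iron-sulfur protein gene Uqcrfs1 (0.42, adjusted p = 0.0733). The median of the complex was 0.35.

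In complex I, 6 of 36 members rose, and all 6 encode accessory subunits, which surround the catalytic core. They were Ndufb11 (0.58), Ndufb6 (0.71), Ndufa13 (0.52), Ndufa3 (0.66), Ndufb4 (0.59) and Ndufv3 (0.48, all log2 fold changes), with adjusted p values of 0.0263 to 0.0367. Ndufb4 had 36.2, 42.5 and 33.2 FPKM in CJL libraries, against 27.0, 25.6 and 21.7 FPKM in Ctrl libraries, with a clear gap between the groups. Ndufb11 had 57.1, 63.9 and 51.1 FPKM in CJL, against 40.8, 36.3 and 37.3 FPKM in Ctrl. The 29 accessory subunits had a median log2 fold change of 0.41. None of the 7 nuclear core subunits, which carry the flavin and iron-sulfur clusters or the quinone site, passed, and their median was 0.12. Among the core, Ndufs3 had the highest value (0.41, adjusted p = 0.0831) and Ndufs7 the lowest (-0.023, adjusted p = 0.951). Other core values included 0.32 for Ndufv1, 0.12 for Ndufs8 and -0.011 for Ndufv2. No test was made of the difference between core and accessory subunits.

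Complex IV had a median of 0.37, and 3 of its 17 tested members rose. Cox5b, a subunit on the matrix side at chr1:36691484-36693681 (mm10), had 107.9, 129.1 and 103.8 FPKM in CJL libraries, against 75.1, 59.2 and 64.6 FPKM in Ctrl libraries. Its log2 fold change of 0.78 (SE 0.128, adjusted p = 0.0263) was the highest of the 83 members. Cox6c had 195.9, 223.9 and 196.0 FPKM in CJL, against 146.9, 117.4 and 128.7 FPKM in Ctrl, a log2 fold change of 0.65 (adjusted p = 0.0263). Cox8a, the most abundant member of complex IV, changed less, with 490.6, 530.5 and 481.1 FPKM in CJL and 402.7, 415.8 and 404.8 FPKM in Ctrl (0.29, SE 0.061, adjusted p = 0.0401). Both groups were tight in Cox8a and did not overlap, but its call was lost with median-of-ratios scaling, quantile normalization, rescaling without the mitochondrial genome and the GC content and length correction.

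The lowest medians were those of complexes V and II. In complex V, 1 of 17 members rose, and the median was 0.18. Complex II had a median of 0.28. Atp5g2, of the proton-carrying ring, had 57.5, 75.5 and 54.2 FPKM in CJL, against 43.7, 38.2 and 38.8 FPKM in Ctrl (0.62, SE 0.116, adjusted p = 0.0309). Its paralogs had values of 0.69 for Atp5g3 (adjusted p = 0.0521) and 0.50 for Atp5g1 (adjusted p = 0.059) and did not pass. The catalytic subunits had 0.29 for Atp5a1 (adjusted p = 0.0735) and 0.25 for Atp5b (adjusted p = 0.0673). In complex II no member passed: the log2 fold changes were 0.20 for Sdha, 0.22 for the iron-sulfur subunit Sdhb, 0.34 for Sdhc and 0.42 for the anchor Sdhd, with adjusted p values of 0.0785 to 0.144.

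The count of 12 rested on single libraries, and the shares of all genes in the alternative fits that follow are not given here. It was 20 without PFC ZT1 Ctrl replicate 1, 0 without Ctrl replicate 2, 1 without Ctrl replicate 3, 0 without CJL replicate 1, 1 without CJL replicate 2 and 6 without CJL replicate 3, and 1 without the 4 PFC libraries high in markers of neighbouring tissue, while the members' median was 0.27 to 0.37 with 1 library left out. CJL replicate 2 and Ctrl replicate 1 of PFC ZT1 stood high in olfactory bulb markers, at 3.54 and 2.12 log2 units above the PFC median. The members stood at 0.192 in CJL replicate 2, against 0.048 in CJL replicate 1 and 0.051 in CJL replicate 3. In Ctrl replicate 1 they stood at -0.151, against -0.336 and -0.222 in Ctrl replicates 2 and 3. After levels were corrected for GC content and length 9 members rose, of which 7 were among the 12, and the median was 0.20. Atp5g2 (0.49, adjusted p = 0.0702), Cox8a, Ndufa3, Ndufb4 and Ndufv3 did not pass with it. Exonic length, here the union of all annotated exons of a gene and not the length of 1 message, has a median of 1631 bases in the members. Over all genes tested in PFC it is 4156 bases. In PFC ZT1 Ctrl libraries longer genes tended to stand higher against the PFC mean and shorter genes lower (Spearman's rho of 0.21 to 0.26 over all genes, which are not independent).

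**Figure D3:**
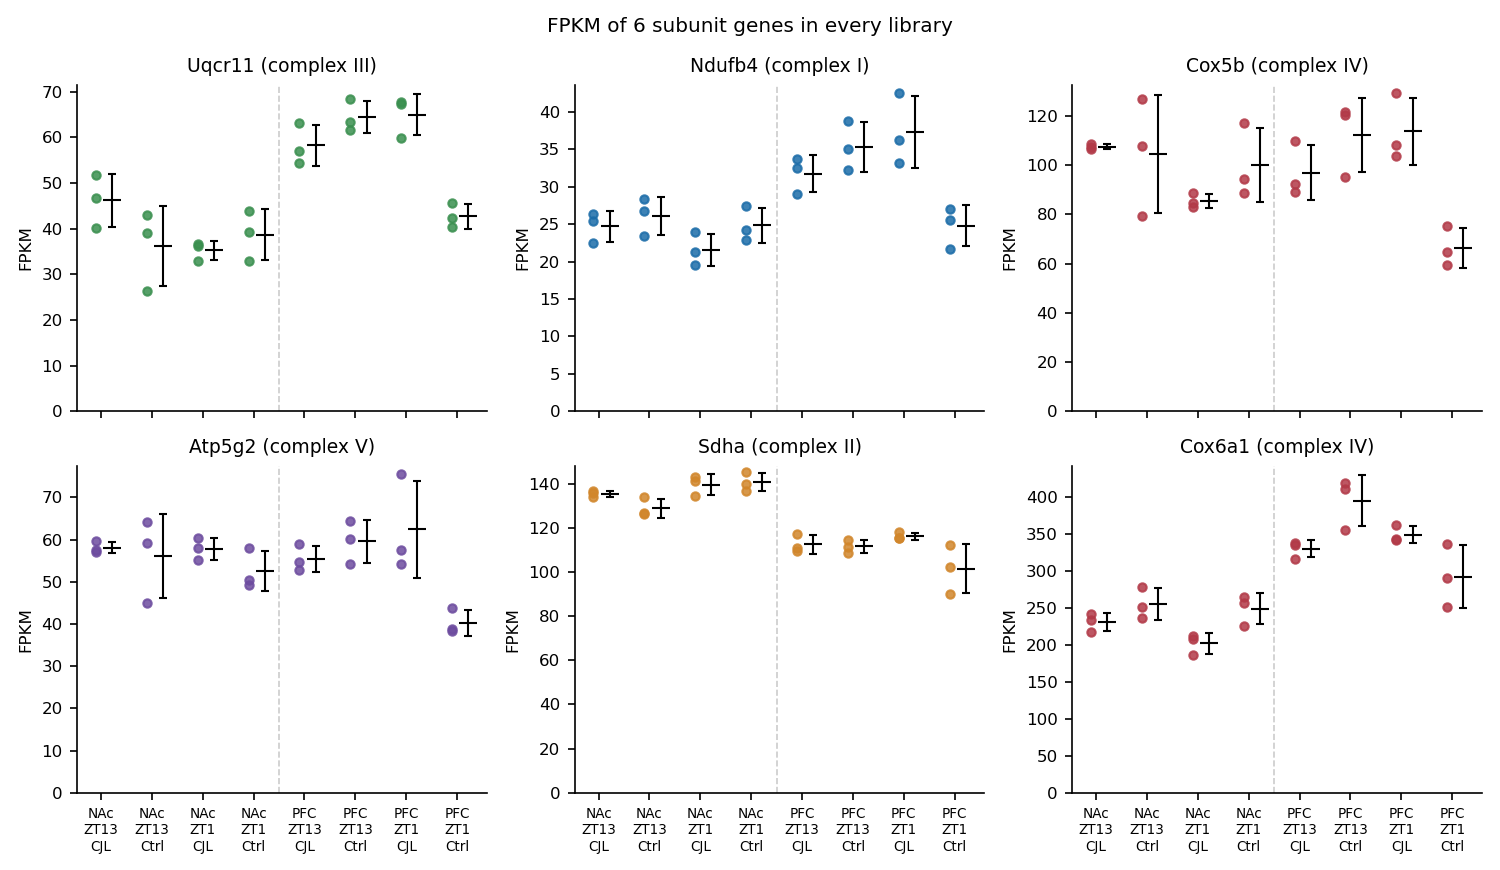
FPKM (y axis, from 0) of 6 subunit genes in every library, with 3 libraries (points) and their mean ± SD (bar and whiskers) for each of the 8 groups (x axis). Uqcr11, Ndufb4, Cox5b and Atp5g2 had their lowest PFC values in ZT1 Ctrl, Sdha was higher in NAc and Cox6a1 higher in PFC.

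The second comparison set ZT13 against ZT1 in PFC of Ctrl mice, which were kept on a stable schedule. Of 83 members, 41 rose at ZT13 and none fell, where 8.8% of all genes rose and 3.54% fell. The median was 0.38, against 0.060 over all genes, and 80 of 83 members were above 0. At an unadjusted p under 0.05, 65 were higher and none lower (20.7% and 9.91% of all genes). The groups did not overlap in 58 members higher and 1 lower at ZT13 (21.9% and 11.5% of all genes). These values share the 3 PFC ZT1 Ctrl libraries with those of CJL against Ctrl at ZT1, so the 2 sets are not independent. All 3 are libraries high in mt-Atp6, and what raised it cannot be told apart from time of day here. By complex, 21 of 36 members of complex I rose (median 0.44), 1 of 4 of complex II (0.26), 4 of 9 of complex III (0.27), 10 of 17 of complex IV (0.44) and 5 of 17 of complex V (0.26).

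Uqcr11 again had the smallest p, with 61.7, 63.3 and 68.4 FPKM in ZT13 Ctrl libraries, against 42.3, 40.3 and 45.7 FPKM in ZT1 Ctrl libraries (0.59, SE 0.079, adjusted p = 0.00462). Cox6a2, the low muscle isoform, had 6.92, 7.88 and 7.40 FPKM at ZT13 and 4.63, 4.40 and 4.33 FPKM at ZT1 (0.72, SE 0.097, adjusted p = 0.00472). Both genes had a wide gap between the groups. Uqcrq reached 0.61 (adjusted p = 0.00584) and Ndufa13, also called GRIM-19, 0.55 (adjusted p = 0.00716). Of complex V, Atp5g1 (0.64, adjusted p = 0.0109), Atp5g2 (0.56, adjusted p = 0.0142) and Atp5g3 (0.76, adjusted p = 0.0141) rose together with Atp5e (0.59) and Atp5l (0.43). All 3 genes of subunit c were thus among the 5 of complex V. In complex II, Sdhd had 43.1, 46.0 and 46.8 FPKM at ZT13, against 40.9, 25.8 and 35.5 FPKM at ZT1 (0.43, adjusted p = 0.046). Core subunits of complex I that rose included Ndufs3 (0.50) and Ndufv1 (0.48), and of the 29 accessory subunits 18 rose.

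This count ran from 12 without PFC ZT13 Ctrl replicate 2 to 57 without PFC ZT13 Ctrl replicate 1, with 13 without ZT13 Ctrl replicate 3, 19 without ZT1 Ctrl replicate 2 and 27 without ZT1 Ctrl replicate 3, and the median from 0.30 to 0.46. It was 60 without the libraries high in markers of neighbouring tissue. The shares of all genes in these fits with libraries left out are not given here. ZT13 Ctrl replicate 1 was among the libraries high in choroid plexus markers, and its members stood at -0.022, against 0.14 and 0.28 in the other 2 of its group. With the GC content and length correction 21 members rose, with a median of 0.20, beside 520 genes that rose and 521 that fell in all.

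No member passed for CJL against Ctrl at ZT13 in PFC, nor for ZT13 against ZT1 in CJL mice. At ZT13, CJL against Ctrl gave a median of -0.12, with 0 of 83 called and a share of 0.0201% of all genes called higher and 0.0% called lower. With p unadjusted and under 0.05, 9 members were lower and none higher, where 5.73% of all genes passed upward and 6.92% downward. The member with the smallest p was Ndufab1, the acyl carrier subunit of complex I (-0.43, adjusted p = 0.301). The smallest p of each other complex belonged to Sdhb (-0.059), Uqcr10 (-0.22), Cox6a1 (-0.26) and Atp5o (-0.19), with adjusted p values of 0.342 to 0.744. Without PFC ZT13 Ctrl replicate 1, 5 members fell, and the share of all genes in that fit is not given here. In CJL mice, ZT13 against ZT1 gave a median of -0.075. No member was called, where 0.0335% of all genes rose and 0.0% fell in this contrast. At an unadjusted p under 0.05, 3 members were lower and none higher (2.96% and 3.92% of all genes). Ndufab1 again had the smallest p (-0.39, adjusted p = 0.58). Cox6a2, which rose at ZT13 in Ctrl mice, had 6.30, 6.60 and 7.20 FPKM at ZT13 and 5.21, 5.70 and 6.51 FPKM at ZT1 in CJL mice (0.21, adjusted p = 0.725), and these groups overlap.

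Whether CJL acted differently at ZT13 and at ZT1 in PFC was tested as an interaction, the CJL effect at ZT13 minus that at ZT1. Uqcr11 passed with a value of -0.75 on the log2 scale (SE 0.111, adjusted p = 0.0335), where 0.0536% of all genes were lower and 0.0268% higher. Its libraries had 63.2, 57.0 and 54.4 FPKM in ZT13 CJL and 61.7, 63.3 and 68.4 FPKM in ZT13 Ctrl, groups that overlap, beside the ZT1 values above, which do not. The members' median was -0.44, against -0.053 over all genes, 80 of 83 members were below 0, and 60 were lower and none higher at an unadjusted p under 0.05 (13.1% and 5.3% of all genes). Ndufa13 (-0.78, adjusted p = 0.0502), Cox5b (-0.98, adjusted p = 0.0562) and Atp5g2 (-0.72, adjusted p = 0.0814) did not pass. The number of members called was 0 to 35 when a library was left out. It was 35 without PFC ZT13 Ctrl replicate 1, 7 without PFC ZT1 Ctrl replicate 1 and 0 without 8 others, and the shares of all genes in these fits are not given here. Uqcr11 also did not pass with median-of-ratios scaling (adjusted p = 0.0541), quantile normalization (0.0528), rescaling without the mitochondrial genome (0.0594), no filter (0.0675) or the GC content and length correction (0.11), and its adjusted p ran from 0.0133 to 0.112 over all alternatives.

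In NAc no member passed in any contrast of lighting or time, and none of the 15573 genes tested did (0.0% in each direction). At ZT1, CJL against Ctrl gave a median of -0.024, with 1 member lower and none higher at an unadjusted p under 0.05, where 2.66% of all genes were lower and 5.05% higher. That member was Cox6a1, with 185.6, 207.9 and 212.1 FPKM in ZT1 CJL and 225.6, 265.0 and 256.0 FPKM in ZT1 Ctrl (-0.30, adjusted p = 0.628). Its groups did not overlap, as in 7 members lower in CJL, where 4.44% of all genes were and 9.52% were higher without overlap. At ZT13 the median was 0.079, with 2 members higher at an unadjusted p under 0.05 (5.31% of all genes, and 3.01% lower), Atp5g1 (0.49, adjusted p = 0.594) and Uqcr11 (0.38, adjusted p = 0.6). Uqcr11 had 51.7, 46.8 and 40.1 FPKM in NAc ZT13 CJL, against 26.3, 39.0 and 43.0 FPKM in ZT13 Ctrl, where the lowest value is that of replicate 1.

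In NAc of Ctrl mice, ZT13 against ZT1 gave a median of -0.037, with 2 members lower at an unadjusted p under 0.05 (4.88% of all genes, and 5.21% higher), and of 0.099 without ZT13 Ctrl replicate 1. These members were Ndufs7, a core subunit of complex I (-0.23, adjusted p = 0.407), and Atp5sl (-0.19, adjusted p = 0.426). The groups of this contrast also differed in cortical projection neuron markers, as given above. In CJL mice it gave a median of 0.066, with 4 members higher at that level (2.75% of all genes, and 2.46% lower), namely Cox8a, Ndufa13 (0.31), Uqcr11 (0.385) and Cox5b (0.33). Cox8a had 423.3, 422.9 and 398.3 FPKM in NAc ZT13 CJL and 338.2, 325.6 and 357.7 FPKM in ZT1 CJL (0.28, adjusted p = 0.938). The groups were apart, as they were, with ZT13 higher, in 16 of the 83 members and 5.7% of all genes. No member and 5.25% of all genes were lower with groups apart. The interaction in NAc had a median of 0.13 and 1 member at an unadjusted p under 0.05 (2.9% of all genes higher, 3.56% lower), Atp5sl (0.25, adjusted p = 0.754). Without the libraries high in mt-Atp6 no NAc member passed either, and the median of ZT13 against ZT1 in Ctrl mice was 0.093 and that of the interaction -0.012. Whether the CJL effect differed between NAc and PFC was not tested. The within-group SD of the members' median was 0.12 in NAc and 0.099 in PFC (log2).

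Between the regions, over all 24 libraries, 43 of 84 members differed at an adjusted p under 0.05. In NAc 13 were higher and 30 lower, where 44.0% of all 16072 genes were higher and 21.7% lower. The members' median was -0.097, while the median of all genes was 0.12. With median-of-ratios scaling, which puts the median of all genes at -0.006, 5 members were higher and 46 lower and their median was -0.23. With the GC content and length correction 6 were higher and 47 lower. The shares of all genes above belong to the main fit and are not the background of these alternative counts. By complex, 5 members of complex I were higher in NAc and 13 lower, and of complex IV none was higher and 9 were lower. Complex II had 1 higher (Sdha) and 1 lower (Sdhb, -0.15, adjusted p = 0.00233), complex III 2 higher and 3 lower, and complex V 5 higher and 4 lower. Without the 6 libraries high in mt-Atp6 10 members were higher and 37 lower, over the 3 combinations of time and lighting left. The share of all genes in that fit is not given here either. The regions did not overlap in 2 members higher and 1 lower, where 8.97% of all genes were higher and 5.61% lower in this way.

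The members higher in NAc included subunits of the catalytic parts. Sdha had 126.1 to 145.3 FPKM in NAc (median 136.1), against 89.98 to 118.0 FPKM in PFC (median 111.7), and the regions did not overlap (log2 fold change 0.30, SE 0.032, adjusted p = 7.35e-08). Ndufs1, the large iron-sulfur subunit of the complex I core, had 59.3 to 80.2 FPKM in NAc (median 65.5), against 50.5 to 58.3 FPKM in PFC (median 53.8), again with no overlap (0.33, SE 0.048, adjusted p = 4.77e-06). Atp5j2, subunit f of ATP synthase, had 57.5 to 78.8 FPKM in NAc and 47.8 to 62.2 FPKM in PFC (0.34, adjusted p = 4.6e-05). The catalytic subunits of ATP synthase passed with small values, Atp5a1 with 0.15 (adjusted p = 0.000876) and Atp5b with 0.10 (adjusted p = 0.0058), near the median of 0.12 over all genes. With median-of-ratios scaling they had 0.023 (adjusted p = 0.573) and -0.03 (adjusted p = 0.393), while Sdha (0.17), Ndufs1 (0.20), Atp5j2 (0.20), Uqcrb (0.21) and Ndufb5 passed as higher. Uqcrb, of complex III, had 92.1 to 121.8 FPKM in NAc and 63.1 to 104.9 FPKM in PFC (0.34, adjusted p = 2.16e-05), but -0.074 (adjusted p = 0.195) with the GC content and length correction. Uqcrc2 was also higher (0.16, adjusted p = 0.00237), but not with median-of-ratios scaling (0.024, adjusted p = 0.596). The adjusted p of Uqcrb was otherwise 5.75e-06 to 0.00956 over the alternatives.

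Of the 30 members lower in NAc, 13 were accessory subunits of complex I and 9 belonged to complex IV. Cox6a1, at chr5:115345642-115348981 (mm10), had 185.6 to 278.5 FPKM in NAc (median 235.2), against 250.5 to 419.3 FPKM in PFC (median 340.0) (-0.54, SE 0.049, adjusted p = 7.23e-09). Cox6a2 had 2.19 to 4.68 FPKM in NAc and 4.33 to 7.88 FPKM in PFC (-0.79, SE 0.091, adjusted p = 2.6e-07). The ranges of both isoforms overlap only at their edges. Uqcr11 had 26.3 to 51.7 FPKM in NAc (median 39.1), against 40.3 to 68.4 FPKM in PFC (median 60.8) (-0.56, SE 0.070, adjusted p = 7.56e-07), and its lowest PFC values are those of ZT1 Ctrl. Cox7a2 (-0.47, the only lower member whose regions did not overlap), Ndufb6 (-0.47) and, in complex V, Atp5d, subunit delta (-0.36), were lower with adjusted p values of 4.03e-07, 1.71e-06 and 2.88e-05. Cox7b2, at 0 to 1.03 FPKM in NAc and 0.251 to 1.16 FPKM in PFC, passed narrowly (-0.84, SE 0.336, adjusted p = 0.0334) at levels near the filter. Ndufa4l2, an isoform linked to hypoxia, had 0.901 to 2.11 FPKM in NAc and 1.72 to 3.52 FPKM in PFC (-0.59, adjusted p = 0.000717). In the main fit no core subunit of complex I was lower, and Ndufs1 and Ndufv2 (0.14, adjusted p = 0.0183) were higher. Of the accessory subunits 3 were higher and 13 lower. Core values ran down to -0.11, and before adjustment 1 core subunit was lower and 2 were higher (p under 0.05, limma). With median-of-ratios scaling Ndufv2 had 0.003 (adjusted p = 0.954). The GC content and length correction gave 0.107 for Ndufs1 (adjusted p = 0.0176) and -0.055 for Ndufv2 (adjusted p = 0.295). Counts of core and accessory subunits in the alternative fits are not given here.

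**Figure D4:**
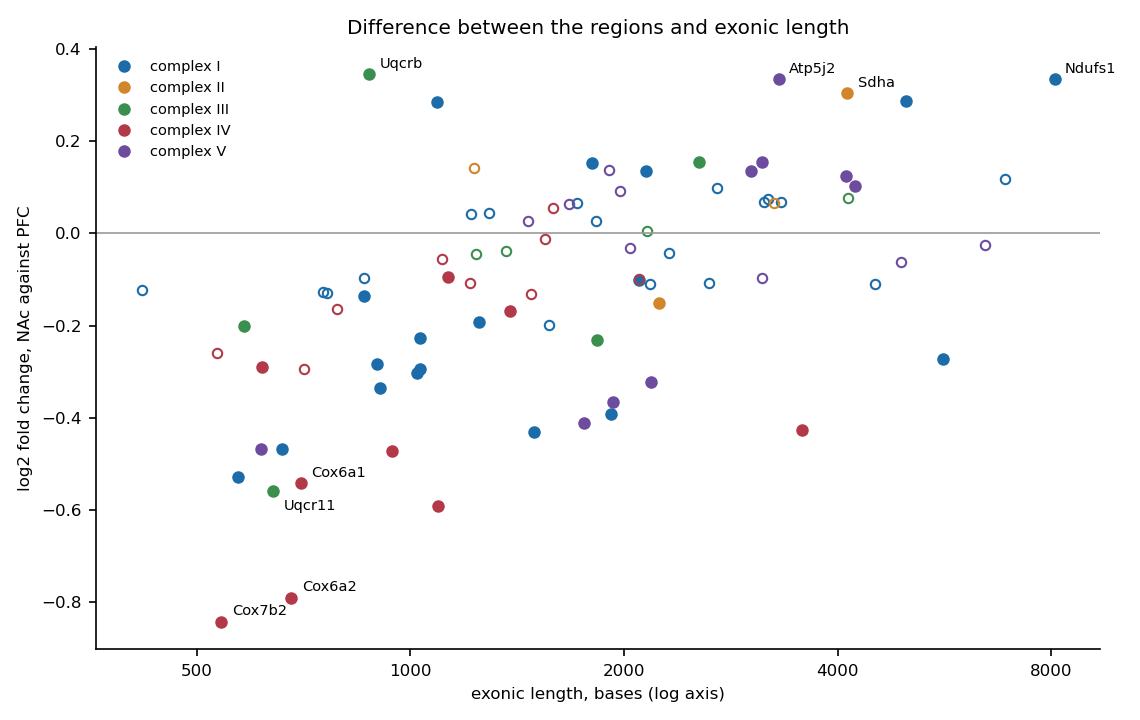
Log2 fold change of each of the 84 members in NAc against PFC (y axis) by exonic length in bases (x axis, log scale), with filled points at an adjusted p under 0.05 and colours for the complexes. Cox7b2, Cox6a2, Uqcr11 and Cox6a1 lie at -0.84 to -0.54, and Sdha, Ndufs1 and Atp5j2 at 0.30 to 0.34.

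Longer members tended to have higher fold changes in NAc against PFC, as the plot against length shows. Spearman's rho was 0.57 over the 84 members and 0.048 over the 16072 genes tested, a description over genes that are not independent and share the same libraries. Complex IV has the shortest exonic length, with a median of 1102 bases, and complex II the longest, with 2744 bases. The mapping rate and the share of high-quality bases that the study reports were lower in every NAc library than in every PFC library. Whether the 2 regions were prepared or sequenced together is not given in the sources used here, so a technical difference between them cannot be told apart from the region.

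Other genes of the pathway were read from lists, in the main fit only. Whether their calls held in the alternative fits was not tested. Of 48 assembly factors, which build the complexes, 45 were tested in PFC. At ZT1, 4 rose under CJL and none fell: Uqcc2 (0.66, adjusted p = 0.0263) and Uqcc3 (0.56, adjusted p = 0.0309), which assemble complex III, Sdhaf4 (0.70, adjusted p = 0.0263), of complex II, and Cox14 (0.55, adjusted p = 0.0316), of complex IV. Over all genes 1.17% rose. The list's median was 0.15. At ZT13 against ZT1 in Ctrl mice 8 of the 45 rose and none fell, where 8.8% of all genes rose, with Sdhaf4 at 0.81 (adjusted p = 0.0054) and a median of 0.11. In NAc against PFC, 12 of 46 were higher, such as Tmem126b (0.50), and 8 lower, such as Uqcc2 (-0.36), both below the shares of all genes (44.0% and 21.7%).

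The 13 subunits of the mitochondrial genome had medians below 0 in both PFC comparisons made against the ZT1 Ctrl libraries, and of 0.048 at ZT13 against ZT1 in CJL mice. At ZT1 their median was -0.30 under CJL, 10 were lower at an unadjusted p under 0.05 (7.39% of all genes) and 1 fell (0.416% of all genes), mt-Atp6 (-3.12, adjusted p = 1.32e-06). In Ctrl mice 3 fell at ZT13 against ZT1 (3.54% of all genes), mt-Atp6 (-2.85), mt-Nd5 (-0.46, adjusted p = 0.039) and mt-Nd4l (-0.44, adjusted p = 0.0404), with a median of -0.27. In NAc none passed in the contrasts of lighting or time, though 8 were lower under CJL at ZT1 at an unadjusted p under 0.05 (median -0.26, and 2.66% of all genes). In NAc against PFC 4 of the 13 were higher, led by mt-Atp8 (0.42), and none lower, against 44.0% and 21.7% of all genes.

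Of 28 electron carriers and regulators, 25 were tested, again in the main fit only. In PFC at ZT1, Esrra, the estrogen-related receptor alpha, rose under CJL (0.49, adjusted p = 0.0405) and no other passed, where 1.17% of all genes rose. Nrf1 (-0.16), Gabpa (-0.20), the coactivator Ppargc1a (-0.022) and Tfam, which maintains mitochondrial DNA (0.003), had adjusted p values of 0.262 to 0.99. In Ctrl mice 5 rose at ZT13 against ZT1, where 8.8% of all genes rose: Esrra (0.65, adjusted p = 0.00706), Higd2a (0.47), Higd1a (0.40), Slc25a4, the ADP/ATP carrier (0.32), and Atpif1, the inhibitor of ATP synthase (0.33). In NAc against PFC 11 were higher, among them Gabpa (0.41), Ppargc1b (0.45) and Ucp2 (0.71), and 3 lower, among them Esrra (-0.33). The 11 of 25 are 44.0%, the same share as over all genes.

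Of the 12 members that rose in PFC at ZT1, 10 had a promoter sequence. Of these, 7 held letters of NRF1, GABP or YY1 in the window of 300 bases, as did 42 of all 66 members. Besides the genes shown above, these were Ndufb6 and Cox8a with GABP and Ndufa3 with YY1. Cox5b, Ndufa13 and Ndufv3 held none of the 3.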

How the data were processed

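Polyadenylated RNA of 24 libraries (PFC and NAc, 3 mice per group) was sequenced as paired ends, and the authors deposited FPKM per gene. The submitters' processing notes name FastQC 0.11.9, HISAT2, StringTie, DESeq2 and the mm10 genome. The annotation release and strand handling are not given in the sources used here. Further deposited tables, which hold the authors' own fold changes and p-values, were not used. FPKM hold no read counts, so counting error is unknown.

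Levels were set as log2(FPKM + 0.1). A gene was tested where 3 or more libraries reached an FPKM of 1, with limma 3.58.1 in R 4.3.3 (trended, two-sided, Benjamini-Hochberg adjustment over all genes tested, threshold 0.05). Each region was fitted with its 4 groups, and NAc against PFC with all 8. Fold changes on this scale understate the change of low genes. Other steps ran in Python 3.11.15 with matplotlib 3.10.9, numpy 2.4.6 and pandas 2.3.3. The fit was tested on simulated data for CJL against Ctrl at ZT1. Of 67 genes changed by 0.5 log2 units, it called 53.7% in PFC and 28.4% in NAc.

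The members, gene lists and comparisons were chosen with earlier results of these data known. Named were, per comparison, the member of each complex with the smallest p and up to 4 called members in each direction, and always the complex II subunits, the paired isoforms, the 7 core subunits of complex I and the members with the highest or lowest level. The other genes named were chosen after their values were seen, and 1 gene under the rule is not reported here. Exonic lengths, GC content and overlaps came from GENCODE M21, to which 99.0% of 48526 genes matched by identifier and 86.8% by coordinates. The alternatives were quantile normalization, median-of-ratios scaling, a pseudocount of 1, no filter on low values, rescaling without the mitochondrial genome, a GC content and length correction (20 bins, 2 rounds), the groups of a comparison alone, a replicate block and each library left out. After seeing the data, fits without libraries high in markers of neighbouring tissue and without libraries high in mt-Atp6 were added. The latter could not be made for PFC comparisons that use the ZT1 Ctrl group, since all its libraries are high in mt-Atp6.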

Additional observations from a re-analysis of the deposited data

Results flagged for a closer look

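The CJL effect on Uqcr11, a subunit of complex III, passed the test for a difference between ZT13 and ZT1 in PFC, the interaction term of the limma fit over all genes. The value was -0.75 on the log2 scale (SE 0.111, adjusted p = 0.0335). The call was lost with quantile normalization, median-of-ratios scaling, no filter on low values, rescaling without the mitochondrial genome, the GC content and length correction, the replicate block and 8 of 12 fits with 1 library left out, and over all alternatives the value was -0.893 to -0.454 and the adjusted p 0.0133 to 0.112. CJL against Ctrl was -0.15 at ZT13 and 0.60 at ZT1. In NAc the same term for Uqcr11 was 0.505 (adjusted p = 0.768). All 3 PFC ZT1 Ctrl libraries, which enter this term, are among the libraries high in mt-Atp6, and this cannot be told apart from the group.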

How the results depend on the processing

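For CJL against Ctrl in PFC at ZT1, the 12 members called became 2 with no filter, 0 with the groups of the comparison alone, 1 without libraries high in markers of neighbouring tissue and 0 to 20 with 1 library left out, and the median of 0.34 became 0.195 with the GC content and length correction. For ZT13 against ZT1 in PFC of Ctrl mice, the 41 called became 22 with no filter, 21 with the GC content and length correction, 11 with the groups alone and 12 to 57 with 1 library left out, and the median became 0.197 with that correction and 0.507 without the libraries high in markers. For CJL against Ctrl in PFC at ZT13, 0 to 5 were called with 1 library left out. For the PFC interaction, the 1 called became 2 with a pseudocount of 1, 0 with quantile normalization, median-of-ratios scaling, no filter, rescaling without the mitochondrial genome or the GC content and length correction, 9 without the libraries high in markers and 0 to 35 with 1 library left out, and the median became -0.339 with quantile normalization and -0.224 with the correction. In NAc, the median of ZT13 against ZT1 in Ctrl mice was -0.117 to 0.099 with 1 library left out and 0.093 without libraries high in mt-Atp6, where that of the interaction was -0.012. In NAc against PFC the median was -0.229 with median-of-ratios scaling, and Uqcrb turned to -0.074 with the GC content and length correction. The cause of these shifts was not tested. The labels number replicates alike in each group, but the deviations of same-numbered libraries correlated at 0.0175 to 0.134 between the regions of a group (12 pairs, median 0.0379), against -0.15 to 0.109 for other numbers (24 pairs, median -0.0298). All 12 were above 0, but not all over 0.1, and the labels do not say that a number marks a mouse, so the numbers were not taken to pair the samples. With a replicate block 1 member was called in PFC at ZT1 under CJL, 33 at ZT13 against ZT1 in Ctrl mice and 0 in the PFC interaction, and 14 were higher and 37 lower in NAc against PFC. Counts of called members in all these alternative fits are given without the shares of all genes in the same fits.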

Other observations

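Other gene lists of mitochondria and translation gave these counts in the main fit, the only fit read for them. In PFC at ZT1 under CJL, 8 of 82 cytosolic ribosomal protein genes rose and none fell (median 0.24), where 1.17% of all genes rose and 0.416% fell. Of 77 mitochondrial ribosomal protein genes 1 rose (median 0.18), which is near the share of all genes, and of 17 citric acid cycle genes none passed (median 0.14, 7 higher at an unadjusted p under 0.05, where 13.8% of all genes were). At ZT13 against ZT1 in PFC of Ctrl mice, 33 cytosolic and 12 mitochondrial ribosomal protein genes and 2 citric acid cycle genes rose, and none fell, where 8.8% of all genes rose. None of these genes passed in the other PFC comparisons, the interaction included, or in NAc for lighting or time. In NAc against PFC, 26 cytosolic ribosomal protein genes were higher and 14 lower, 22 and 7 of the mitochondrial ones, and 6 and 1 of the citric acid cycle genes. The shares higher (31.7%, 28.6% and 35.3%) were all below the 44.0% of all genes.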
